A study of Mus musculus with 5 samples.

Results

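The 7 genes described here, Serpinb1a, Serpinb1b, Serpinb1c, Serpinb6a, Serpinb6b, Serpinb9 and Serpinb9b, are clade B serpin genes of mouse chromosome 13, and were taken by name from the 22350 protein-coding genes of the autosomes and chromosome X. Runx3 and H3K4me1 ChIP-seq peaks of IL-2-activated NKC were counted for each gene when they overlapped the gene or the 20 kb to either side of it, with mm9 coordinates and GENCODE M1 genes. NKC had been isolated from spleens of ICR mice by negative selection and cultured for 7 days with 1000 units/ml of human IL-2, which all libraries shared. Runx3 was precipitated with an in-house antibody in 2 libraries and H3K4me1 with a monoclonal antibody in 1 library, and non-immune serum (NIS) gave 2 control libraries. The authors called 1 list of 11676 Runx3 peaks and 1 list of 34204 H3K4me1 peaks against NIS. The lists hold a start and an end for each peak and no height, score or value per library, so every count below comes without a replicate error and read depth cannot be taken from them. Of 10 NK cell marker genes all 10 had Runx3 and H3K4me1 peaks in the same window, beside 41.1% and 51.1% of all protein-coding genes. The NK list includes Prf1 and Gzmb, which are also among the granule genes below. The counts were 3 and 4 of 6 T cell markers, 2 and 3 of 5 B cell markers and 2 and 4 of 5 myeloid markers. The T cell, B cell and myeloid lists are short and cannot be set apart from the shares of all genes, and no list was tested against them. No expression was measured in these files, so a peak near a gene says nothing of its RNA level.

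Clade B serpins are serine protease inhibitors that stay inside the cell, where they offer a reactive loop to a protease and trap it in an inactive complex. Mouse Serpinb9 inhibits granzyme B, and in killer cells it guards the cell against its own granule contents. Among Serpinb1 proteins are inhibitors of neutrophil elastase, cathepsin G and proteinase 3, and among Serpinb6 proteins an inhibitor of cathepsin G. Targets can differ between members of a subfamily. The genes arose by tandem duplication, and the coding sequences of the members fell into subfamilies. Serpinb9 and Serpinb9b were 86.5% identical, Serpinb6a and Serpinb6b 86.4%, and the 3 Serpinb1 genes 87.8% to 90.7%, while pairs of different subfamilies were 62.9% to 70.8% identical. H3K4me1 is a histone mark enriched at enhancers and around promoters, and Runx3 is a transcription factor of the Runt domain family that recognises the RUNX motif.

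All 7 genes carried H3K4me1, but only 4 were Runx3-bound. Serpinb9 and Serpinb6a had 3 Runx3 peaks each, Serpinb6b had 2, Serpinb1b had 1, and Serpinb1a, Serpinb1c and Serpinb9b had 0. H3K4me1 peaks numbered 6 at Serpinb9b, 5 each at Serpinb9, Serpinb6b and Serpinb1b, and 3 each at Serpinb6a, Serpinb1a and Serpinb1c. With these flanks the gene with most H3K4me1 peaks was not among those with most Runx3 peaks. With 50 kb flanks Serpinb9b had 18 H3K4me1 peaks and 5 Runx3 peaks, and Serpinb9 and Serpinb6b had 5 Runx3 peaks as well. The peaks were 9 distinct Runx3 peaks and 29 distinct H3K4me1 peaks, since 1 H3K4me1 peak lay in the windows of both Serpinb6b and Serpinb9. The windows of neighbouring members overlap, so the genes are not independent of each other. Among all protein-coding genes, 41.1% had a Runx3 peak in the same window and 51.1% an H3K4me1 peak, with medians of 0 and 1 peaks, compared with medians of 1 and 5 for the 7 genes. A Runx3 peak that overlapped an H3K4me1 peak was found at 4 of the 7 genes and at 20.5% of all genes. Serpinb9 and Serpinb6a, with 3 Runx3 peaks, were among the 7.36% of genes with 3 or more. H3K4me1 without Runx3, as at Serpinb1a, Serpinb1c and Serpinb9b, was found at 17.3% of all genes. With 7 genes, none of these counts can be read as a departure of the family from the other genes.

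**Figure D1:**
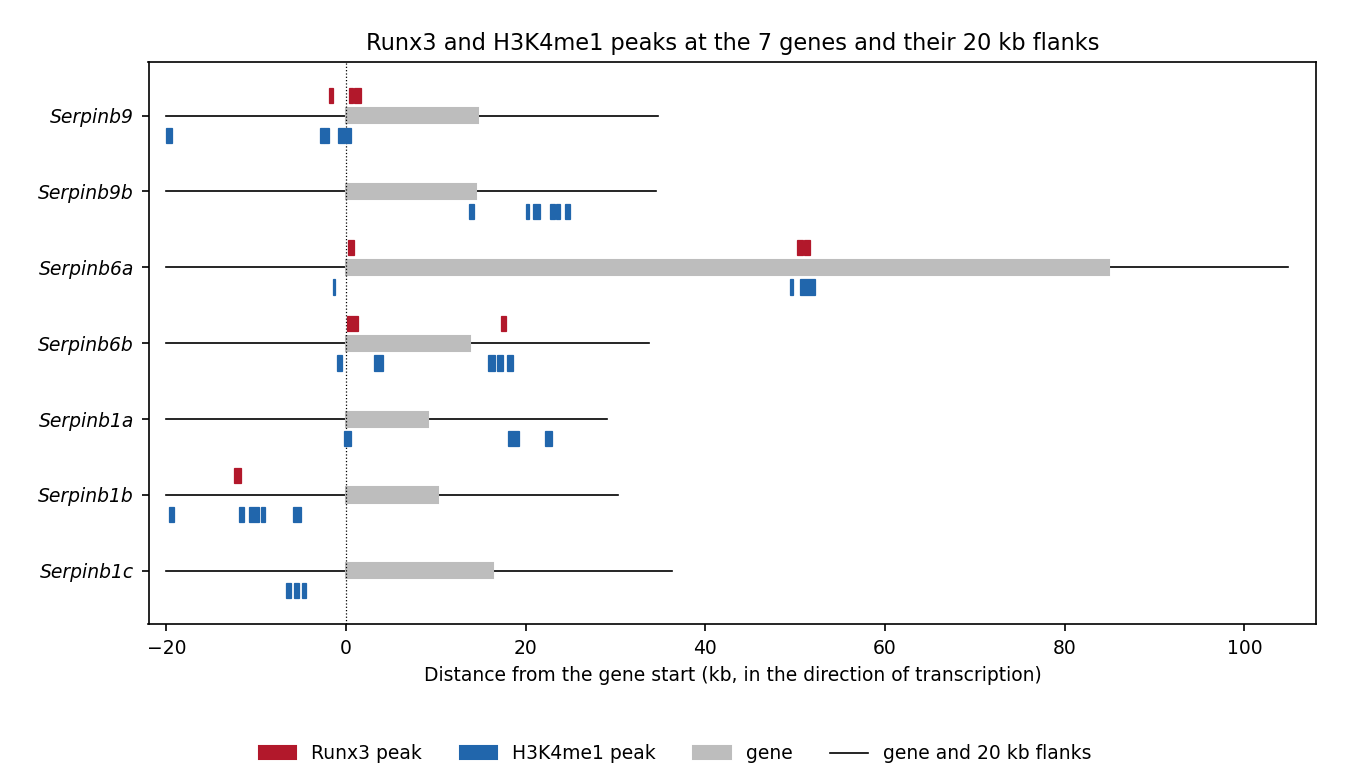
Runx3 peaks (red) and H3K4me1 peaks (blue) at the 7 genes, by distance in kb from the gene start in the direction of transcription; grey bars are genes and black lines the genes with their 20 kb flanks. Serpinb9 has 3 Runx3 peaks around its start, Serpinb9b has 0 and its 6 H3K4me1 peaks lie at the end of the gene and downstream.

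**Figure D2:**
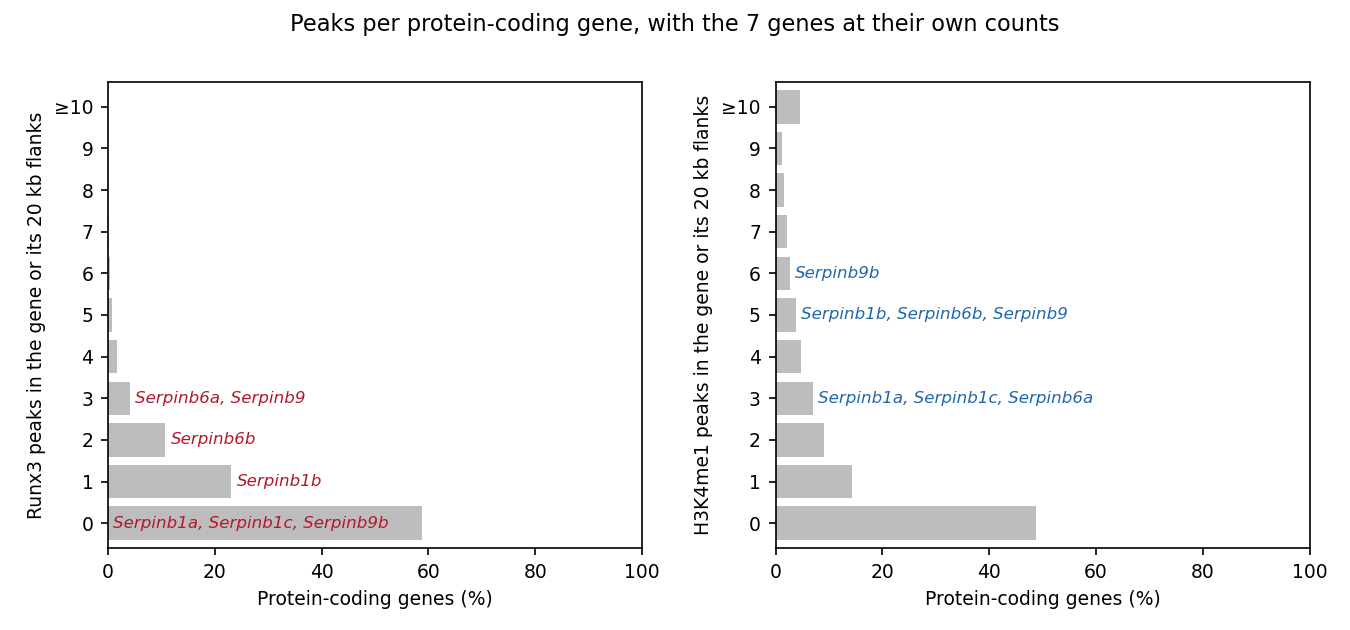
Share of the 22350 protein-coding genes (x axis, percent) by number of Runx3 peaks (left) and H3K4me1 peaks (right) in the gene or its 20 kb flanks (y axis), with the 7 genes written at their own counts. The 7 genes spread from 0 to 3 Runx3 peaks and from 3 to 6 H3K4me1 peaks.

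Serpinb9 (33095119 to 33109826 on the plus strand) held its 3 Runx3 peaks within 2 kb of its start. The first, at chr13:33093210-33093612, was centred 1708 bp upstream. It was 403 bp wide, and 2.71% of all Runx3 peaks were narrower. The second, at chr13:33095392-33095927, lay in an intron with its centre 540 bp downstream of the gene start. The third, at chr13:33096028-33096826, was centred 17 bp downstream of a second annotated TSS of the gene, 1308 bp from the first. Each annotated TSS of the granzyme B inhibitor gene thus had a Runx3 peak centred within 1 kb. H3K4me1 peaks were centred 248 bp downstream of the start and 529, 2174 and 2683 bp upstream, and the fifth lay near the far end of the upstream flank. The intron peak shared 219 bp (40.9%) with the H3K4me1 peak at the start, and the upstream peak shared 3 bp (0.744%) with another. The third peak shared none and lay 417 bp from the nearest H3K4me1 peak. No H3K4me1 peak was found between the TSS region and the end of the downstream flank.

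A pair of stretches from these peaks are shown, each with the RUNX motif nearest to the centre of its own peak in capitals, 2 bp off centre in the upstream peak and 120 bp off in the intron peak, read on the minus strand of mm9. The upstream one is chr13:33093380-33093445 and the intron one chr13:33095746-33095811, where the AP-1 motif TGACTCA stands in lower case before the RUNX motif.
Serpinb9 upstream peak: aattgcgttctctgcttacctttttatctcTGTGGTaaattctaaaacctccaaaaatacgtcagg
Serpinb9 intron peak: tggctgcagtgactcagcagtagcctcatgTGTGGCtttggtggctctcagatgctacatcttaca

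Serpinb9b (33119285 to 33133753, plus strand), of the members the closest to Serpinb9 in coding sequence and its downstream neighbour, had a different pattern within 20 kb. It had no Runx3 peak there, and the nearest one, the third peak of Serpinb9, was centred 22.9 kb upstream of its start, so that with 50 kb flanks both genes had 5. Its H3K4me1 peaks were absent from the start. The nearest, at chr13:33132911-33133560, touched the last exon and was centred 13950 bp downstream of the start, and 5 more lay downstream of the gene between 33139333 and 33144206. Of 40-mers, 83.7% of those in the window of Serpinb9b, 95.4% in the gene and 99.4% within 500 bp of its start occur once in mm9. The part of read alignment in the missing peaks was not tested.

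Serpinb6a (34009787 to 34094663, minus strand) is the longest of the genes, at 84877 bp, and lies apart from the others. A Runx3 peak at chr13:34093737-34094433 was centred 578 bp downstream of the gene start. The same peak was centred 147 bp from a TSS of Ripk1, a kinase gene of death receptor signalling that starts on the opposite strand, and it touched exons of both genes. Which of them the binding belongs to cannot be told apart. This peak overlapped no H3K4me1 peak, and the nearest was 1425 bp away. The other 2 Runx3 peaks, at chr13:34043022-34043696 and chr13:34043854-34044432, lay in an intron far inside the gene. They were centred 51304 and 50520 bp downstream of the gene start. Both fell on 1 H3K4me1 peak of 1720 bp at chr13:34042452-34044171, the widest H3K4me1 peak of the 29. The former lay in it with its whole length and the latter with 54.9%. They were the only 2 of the 9 Runx3 peaks whose centre lay inside an H3K4me1 peak. The nearest TSS of any gene was that of Nqo2, at 13169 and 12385 bp. Nqo2 is a quinone reductase gene inside the Serpinb6a gene, on the opposite strand. Serpinb6a itself has 15 annotated start sites, and the one nearest to these 2 peaks was at 34028067. Relative to it the peak centres lay at -15292 and -16076 bp, which is upstream. The stretch chr13:34044101-34044166 (plus strand) is shown because 2 RUNX motifs stand back to back 18 and 9 bp before the centre of the second peak, the one on the opposite strand as gccaca in lower case.
Serpinb6a intron peak: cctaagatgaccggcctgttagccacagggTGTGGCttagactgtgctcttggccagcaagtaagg

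Serpinb6b (33057182 to 33070936, plus strand) had a wide Runx3 peak at its start, and a second downstream. The first, at chr13:33057317-33058552, spanned 1236 bp, wider than 95.6% of all Runx3 peaks, and was centred 752 bp downstream of the gene start. It overlapped no H3K4me1 peak and lay between one 584 bp to its left and one 1720 bp to its right. The second, at chr13:33074405-33075021, was centred 17531 bp downstream of the gene start, beyond the end of the gene. It shared 285 bp (46.2%) with an H3K4me1 peak at chr13:33073982-33074689 and lay 19 bp from the next, at chr13:33075041-33075731. Its centre thus fell in the gap between neighbouring H3K4me1 peaks. The stretches chr13:33058082-33058147 and chr13:33074687-33074752 (both plus strand) are shown for their motifs. In the first, the ETS motif AGGAAG, read on the opposite strand as cttcct, started 8 bp before a RUNX motif. The second holds the RUNX motif 7 bp from the centre of a peak without any ETS motif, the only such peak of the 9.
Serpinb6b start peak: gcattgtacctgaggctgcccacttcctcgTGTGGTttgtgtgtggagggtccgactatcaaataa
Serpinb6b downstream peak: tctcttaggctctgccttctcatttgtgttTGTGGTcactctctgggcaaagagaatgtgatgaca

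Of the 3 Serpinb1 genes only Serpinb1b was Runx3-bound, and Serpinb1a and Serpinb1c had equal counts with H3K4me1 at different distances. Serpinb1b (33175994 to 33186249, plus strand) had 1 Runx3 peak, at chr13:33163481-33164304, centred 12102 bp upstream of its start. The peak shared 191 bp (23.2%) with an H3K4me1 peak and lay within a row of 5 H3K4me1 peaks centred 5493 to 19401 bp upstream, with none in the gene or downstream. With flanks of 10 kb in place of 20 kb, Serpinb1b had 0 Runx3 peaks. Serpinb1a (32933961 to 32943054, minus strand) had an H3K4me1 peak over its start, at chr13:32942522-32943244, and 2 downstream of the gene, but the nearest Runx3 peak was 115.0 kb away. Serpinb1c (32973702 to 32990030, minus strand) had 3 H3K4me1 peaks centred 4729, 5517 and 6386 bp upstream and its nearest Runx3 peak was 67.9 kb from its start. Both genes lay in a stretch of 285 kb without a Runx3 peak, from 32772475 to 33057316, and 13.8% of the intervals between Runx3 peaks were as long. The sequence around the motif 8 bp from the centre of the Serpinb1b peak, chr13:33163867-33163932 on the plus strand, is shown as the only Runx3-bound one of this subfamily.
Serpinb1b upstream peak: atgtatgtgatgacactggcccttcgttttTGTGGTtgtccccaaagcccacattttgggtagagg

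The 9 Runx3 peaks were alike in holding RUNX motifs and unlike in the rest. The RUNX motif was searched as any of TGTGGT or of TGTGGC or of TGCGGT or of TGCGGC, the ETS motif as any of AGGAAA or of AGGAAG or of CGGAAA or of CGGAAG, and the AP-1 motif as either TGACTCA or else TGAGTCA, on both strands, with overlapping matches counted. All 9 peaks held a RUNX motif (100%, with 70.1% to 100% as 95% Wilson bounds), as did 96.0% of all 11676 Runx3 peaks, and the number per peak ran from 2 at Serpinb6a to 5 at the second TSS of Serpinb9. Within the central 200 bp the motif was found in 6 of 9 peaks (66.7%, 35.4% to 87.9%), compared with 77.0% of all peaks and 29.3% of 200 bp windows 10 kb away. The peaks without a central motif were the start peaks of Serpinb6b and Serpinb6a and the intron peak of Serpinb9. TGTGGT occurred in 8 peaks, TGTGGC in 7, TGCGGC in 2 and TGCGGT in 0, against 75.9%, 57.7%, 19.2% and 21.8% of all peaks. The 2 peaks with TGCGGC were that at the second TSS of Serpinb9 and that at the start of Serpinb6a. ETS motifs were found in 8 of 9 peaks (88.9%, 56.5% to 98.0%; 91.4% of all peaks), all 8 with 1 in the central 200 bp or more, compared with 58.8% of all peaks and 42.8% of windows. AP-1 motifs were found in 2 peaks, the introns of Serpinb9 and Serpinb6a (26.2% of all peaks). The intervals cover counting error only, and for each motif in whole peaks they hold the share of all peaks.

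Of the 9 peaks, 6 overlapped H3K4me1 by 1 bp or more (66.7%, 35.4% to 87.9%), compared with 48.4% of all Runx3 peaks. The overlaps were mostly partial, and with the peak centre inside H3K4me1 required, 2 of 9 remained. Those without any overlap were the start peaks of Serpinb6b and Serpinb6a and the peak at the second TSS of Serpinb9. Peaks within 1 kb of a TSS numbered 4 of 9 (44.4%, 18.9% to 73.3%), compared with 25.3% of all Runx3 peaks. In the other direction, 5 of the 29 H3K4me1 peaks overlapped a Runx3 peak (17.2%, 7.60% to 34.5%), as did 19.9% of all H3K4me1 peaks. Of the 24 that overlapped none, 16 (66.7%) held a RUNX motif, including the peak over the start of Serpinb1a with 2 and the peak 5493 bp upstream of Serpinb1b with 7. Among all H3K4me1 peaks 79.7% held one, a share not split by Runx3 overlap, so a RUNX motif was common under H3K4me1.

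Since the genes are duplicates, each Runx3 peak was searched for in mm9 with blastn, and alignments of 300 bp or more outside the peak were taken as duplicated counterparts. There were 13 counterparts of 4 peaks, all in the serpin cluster, with identities of 67.6% to 87.8%. Of these 13, 0 overlapped a Runx3 peak and 0 an H3K4me1 peak. Runx3 peaks cover 0.33% and H3K4me1 peaks 1.07% of the autosomes and chromosome X, and 8 of the 13 lay in a single stretch of 879 kb without Runx3 peaks, so this count is a description and sets the counterparts apart from no other sequence. The other 5 peaks, the start peaks of Serpinb6b and Serpinb6a, the intron peaks of Serpinb6a and the upstream peak of Serpinb9, had none of this length. The upstream peak of Serpinb9 had 106710 shorter alignments in mm9, so part of its sequence is present in many copies. Of the 40-mers of that peak 91.5% occur once. In 9 of the 13 counterparts 82.2% or more of 40-mers occur once in mm9, and in the other 4, of the Serpinb9 intron peak, 15.0% to 56.3% do.

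The Serpinb9 intron peak had 9 counterparts, which lay nearest to the starts of Serpinb9b, Serpinb9c, Serpinb9d, Serpinb9e, Serpinb9f, Serpinb9g, Gm11397 and Serpinb6b. The closest in sequence, chr13:33118054-33118622, was 79.4% identical and centred 947 bp upstream of the Serpinb9b start, with 98.7% of its 40-mers found once. The bound stretch held 3 RUNX motifs and the Serpinb9b counterpart 1, while both held 4 ETS motifs. On the minus strand, the motif TGTGGT at 33095475 to 33095480 was kept at Serpinb9b, the motif TGTGGC at 33095429 to 33095434 was aligned with TATAAC, and the motif TGTGGC at 33095776 to 33095781 with TATGGC. The last site read TGTGGC in the counterparts upstream of Serpinb6b and by Serpinb9c, TGTGGT in those upstream of Serpinb9d and Serpinb9e, and TGCAGA in the remaining 4. Only the counterparts by Serpinb9b and Serpinb6b aligned with all 3 bound motifs, and each held 1. The other 7 aligned with a part of the peak that held 1 RUNX motif, and of these 3 held 1 and 4 held 0. Of windows of the same 534 bp taken 10 kb from all Runx3 peaks, 60.2% held at least 1, so a single motif is no mark of a bound stretch. The start of the aligned stretch is shown for both genes on the plus strand, chr13:33095394-33095517 and chr13:33118054-33118203, with RUNX motifs of either strand in capitals.
Serpinb9, Runx3-bound: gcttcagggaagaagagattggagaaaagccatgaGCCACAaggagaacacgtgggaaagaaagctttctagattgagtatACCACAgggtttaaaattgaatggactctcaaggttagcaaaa
Serpinb9b, not bound: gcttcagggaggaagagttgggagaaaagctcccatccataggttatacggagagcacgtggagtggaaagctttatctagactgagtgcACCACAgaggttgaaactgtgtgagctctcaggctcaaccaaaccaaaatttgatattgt

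**Figure D3:**
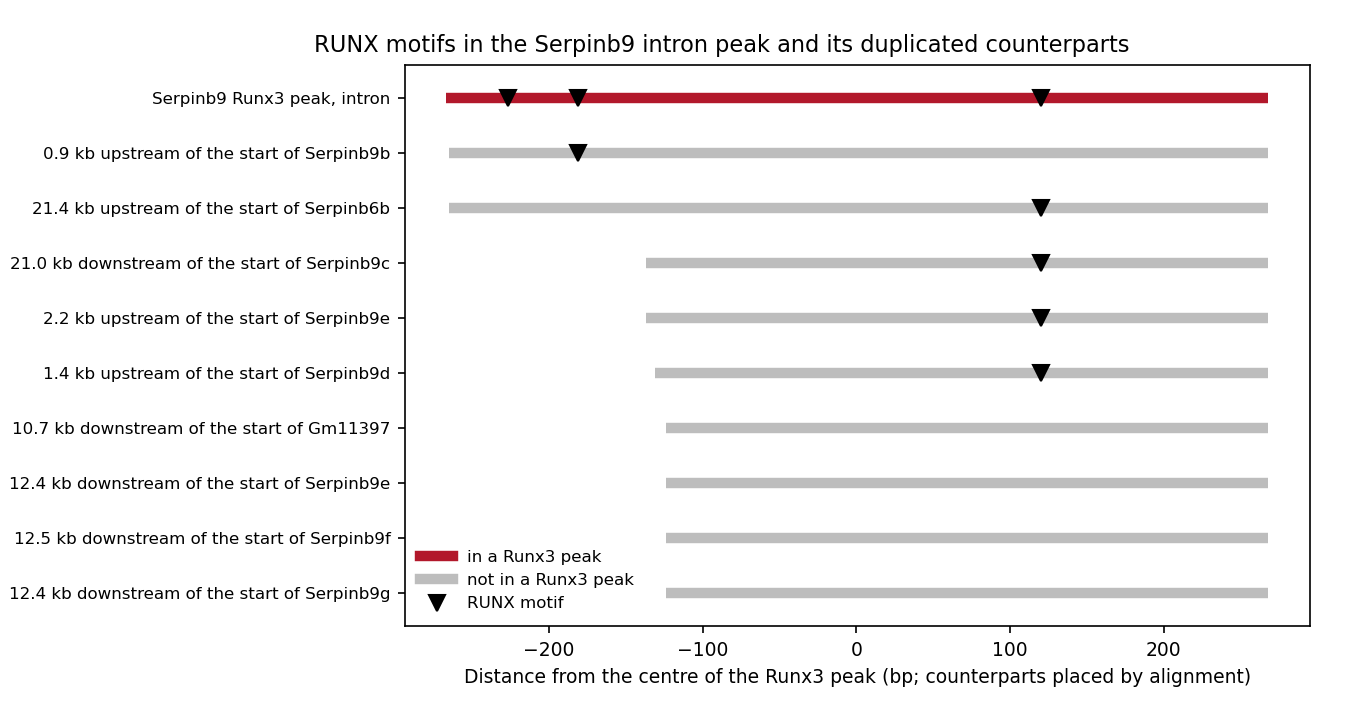
RUNX motifs (triangles) in the Serpinb9 intron Runx3 peak (red bar) and in its 9 duplicated counterparts (grey bars), placed by alignment as distance in bp from the centre of the Serpinb9 peak; each row is named by the nearest protein-coding TSS. The peak has 3 motifs and each counterpart 1 or 0, but the 7 shorter counterparts align only with a part of the peak that has 1.

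The peak at the second TSS of Serpinb9 had 2 counterparts. One spanned the start of Serpinb9b, at chr13:33119212-33119701, with 70.1% identity and its centre 171 bp downstream of that start. It held 0 RUNX motifs where the bound stretch held 3, and 99.8% of its 40-mers occur once. Of windows of 451 bp, the length of that bound stretch, taken 10 kb from all Runx3 peaks, 54.3% held at least 1. At Serpinb1b only the right part of the Runx3 peak, 33163969 to 33164303, was duplicated. Its counterpart, chr13:32999565-32999899 on the minus strand, was 87.8% identical over 335 bp and centred 9702 bp upstream of the Serpinb1c start. All 4 RUNX motifs of the Serpinb1b peak lay outside the duplicated part, which held 0, while the unbound Serpinb1c counterpart held 1. Of windows of 335 bp, 43.9% held a RUNX motif. The left ends are shown, chr13:33163969-33164118 (plus strand) and chr13:32999750-32999899 (minus strand), with 123 of 150 positions identical and the RUNX motif of Serpinb1c, read on the opposite strand, in capitals.
Serpinb1b, in the Runx3 peak: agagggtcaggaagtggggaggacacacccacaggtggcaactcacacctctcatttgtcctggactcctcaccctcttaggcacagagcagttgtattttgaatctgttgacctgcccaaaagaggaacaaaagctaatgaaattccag
Serpinb1c, not bound: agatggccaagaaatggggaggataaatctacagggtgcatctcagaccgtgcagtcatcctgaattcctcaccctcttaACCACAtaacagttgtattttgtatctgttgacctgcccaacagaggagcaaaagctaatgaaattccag

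Along the cluster, the peaks of the members stood at its ends. From the Serpinb1b peak to the intron of Serpinb6a there was no Runx3 peak for 879 kb (33164305 to 34043021). Of 11656 intervals between neighbouring Runx3 peaks 4.99% were as long, with a median of 49.2 kb. H3K4me1 was missing for 872 kb of the same stretch (33170948 to 34042451), as long as 1.59% of 34184 intervals, whose median was 4.41 kb. The stretch holds the Serpinb1b gene itself and the protein-coding gene Gm11397. It also holds the 8 other clade B genes listed for this cluster, Serpinb6c, Serpinb6d, Serpinb6e and Serpinb9c to Serpinb9g. The windows of these 8 lie inside both intervals, so by their place 0 of 8 had a Runx3 peak and 0 of 8 an H3K4me1 peak. Only 59.0% of the 40-mers of the stretch occur once in mm9, compared with 89.6% in the windows of the 7 genes, and 40-mers found more than once cannot be aligned uniquely. In the Runx3 peaks of the 7 genes the share was 99.5%, but peaks were called from unique alignments only, so this is not a like comparison. Over the 8 other clade B genes themselves the share ran from 24.5% at Serpinb9g and 40.7% at Serpinb9f to 94.9% at Serpinb6d and 98.7% at Serpinb6e. It was 80.5% and 82.6% in the windows of Serpinb6d and Serpinb6e, which had no peak either. The part of read alignment in the missing peaks was not tested here either. Among the members the share of 40-mers found once was lowest in the Serpinb1c gene, at 60.9%.

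**Figure D4:**
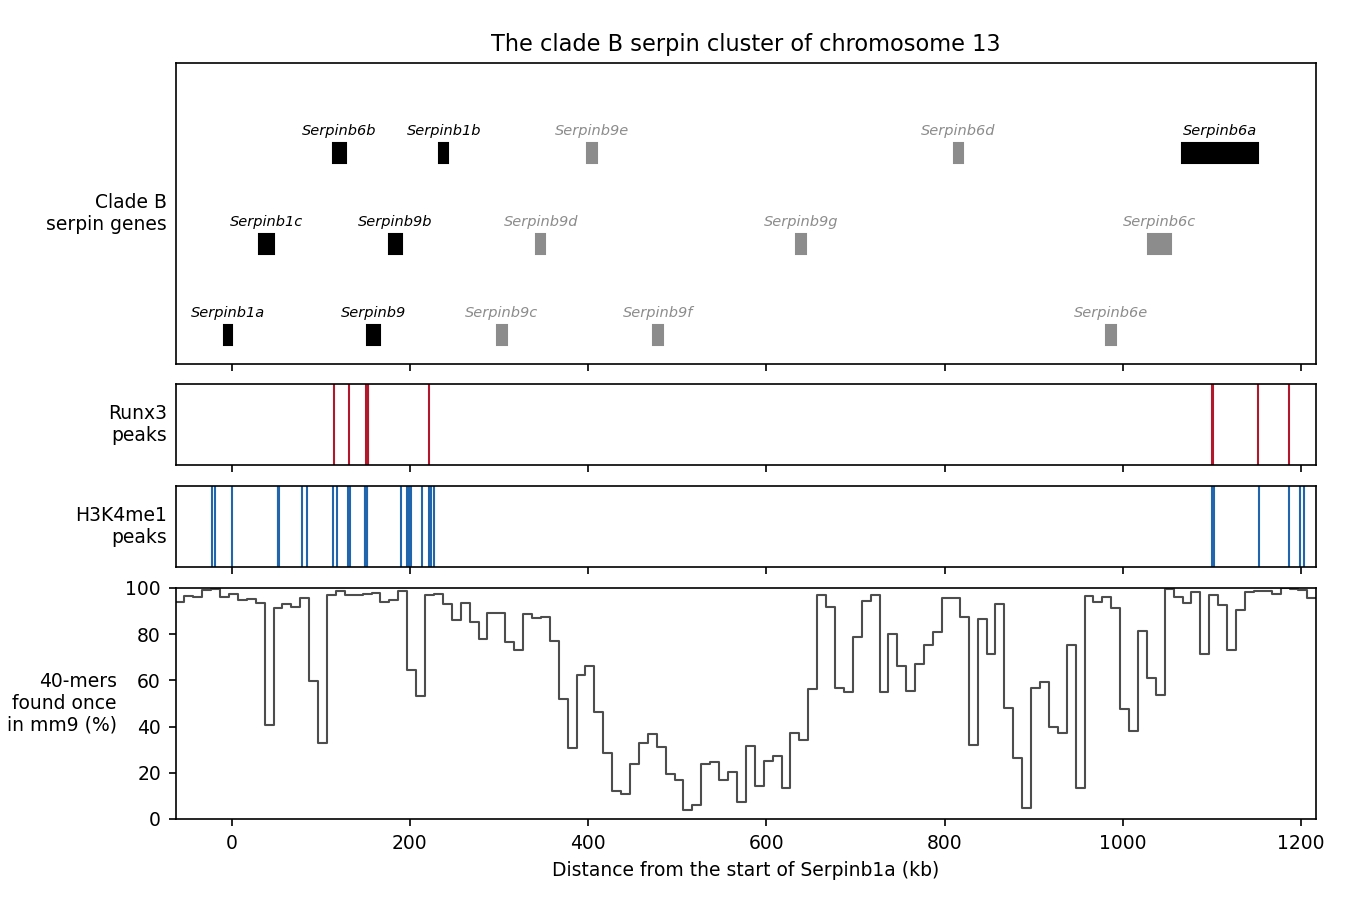
The clade B serpin cluster by distance in kb from the start of Serpinb1a: the 7 genes in black and 8 others in grey, Runx3 and H3K4me1 peaks as lines, and the share of 40-mers found once in mm9 per 10 kb in percent. Peaks lie around the 7 genes, and the 879 kb from the upstream peak of Serpinb1b to the intron of Serpinb6a have none of Runx3. These 879 kb include the Serpinb1b gene itself.

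Of 12 clade B genes outside this cluster, 0 had a Runx3 peak and 1, Serpinb8, had 1 H3K4me1 peak. All 12 lie in 1 block of chromosome 1, from 108757750 to 109505486, and Serpinb10 is annotated there as a polymorphic pseudogene. Windows of some neighbours overlap, as at Serpinb3b and Serpinb3c, so the 12 counts are not independent and describe this 1 locus. How much of the block can be aligned uniquely was not counted. Of 17 genes for granule proteases and their partners, 16 had a Runx3 peak, 15 an H3K4me1 peak and 12 an overlapping pair. Among all protein-coding genes the shares were 41.1%, 51.1% and 20.5%. The 17 genes had medians of 2 Runx3 and 4 H3K4me1 peaks. Prf1, which encodes the pore-forming perforin, had 5 Runx3 and 10 H3K4me1 peaks and Gzma, which encodes granzyme A, 4 and 10. Gzmb, which encodes the protease that Serpinb9 inhibits, had 3 Runx3 peaks, as many as Serpinb9, and 8 H3K4me1 peaks. In the summed difference of 3 counts (Runx3 peaks, H3K4me1 peaks and overlapping pairs), the genes most like Serpinb9 among these other clade B genes and granule genes were Gzmk and Gzmn, each at 2, and the most like Serpinb6a was Gzmn, also at 2. The likeness was not particular to granzyme genes, since the member Serpinb6b also differed from Serpinb9 by 2 and the myeloid marker Csf1r, named after its values were seen, with 2 Runx3 and 5 H3K4me1 peaks and 2 overlapping pairs, by 1. The granzyme genes of chromosome 14 stand in tandem with Ctsg and Mcpt8, and their windows overlap. Those of Elane and Prtn3 on chromosome 10 overlap too, so counts can share peaks and the 17 genes are not independent. The windows of Gzma and Gzmk do not overlap, and that of Gzmm overlaps none of the others listed.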

How the data were processed

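ChIP-seq peaks of IL-2-activated splenic NKC were analysed. Reads of 40 bp had been aligned to mm9 with ELAND. Per the study's methods only unique alignments were used, and MACS called peaks on the joined libraries relative to NIS. For each peak the authors deposited a chromosome, a start and an end (bp) and neither a score nor a p-value, and values per library and depth are not in the lists. Starts, counted from 0 in the lists, are given from 1.

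The members and gene lists were chosen with earlier results of these data known. All 7 members are named, with the 2 granule genes with most Runx3 peaks, and marker lists are given by counts. Peaks were assigned to GENCODE M1 genes with 20 kb flanks by an overlap of 1 bp. No test was made, since the lists hold 1 condition. Columns of other samples numbered 0. Distances run from peak centres. Each 40-mer of the cluster was counted in the whole genome on both strands without mismatches. Near-identical copies were not counted, so the shares found once are upper limits of what could be aligned uniquely. Counterparts were found with blastn 2.17.0, and their minimum of 300 bp was chosen after seeing the data. Shares have 95% Wilson intervals. The counting of overlaps, motifs and 40-mers was tested on simulated data. Alternatives were other flanks, overlaps, TSS distances, motif rules, backgrounds and counterpart lengths. Calculations used python 3.11.15, numpy 2.4.6, pandas 2.3.3, scipy 1.17.1, pysam 0.24.0, numba 0.67.0, biopython 1.88, samtools 1.23.1 and matplotlib 3.10.9.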

Additional observations from a re-analysis of the deposited data

How the results depend on the processing

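The width of the flanks moved the counts most. With flanks of 5, 10 and 50 kb the median was 0, 0 and 4 Runx3 peaks and 1, 3 and 11 H3K4me1 peaks per member, and 28.8%, 33.5% and 55.4% of all genes had a Runx3 peak and 39.8%, 44.5% and 62.0% an H3K4me1 peak. Among genes of member-like length these shares were 47.3% and 58.0%. The number of members with a Runx3 peak stayed between 3 and 5 of 7 and that with H3K4me1 between 6 and 7. Joining H3K4me1 peaks closer than 1 kb gave a median of 3 per member. Runx3 peaks on H3K4me1 fell from 6 to 2 of 9 when 50% of the peak had to be covered or its centre to lie inside. Within 500 bp of a member's TSS 1 of 9 peaks remained. The share of 40-mers found once was 97.7% within 500 bp of the gene starts and 99.5% in the Runx3 peaks. With counterparts of 200 bp or 400 bp or more, 19 and 12 were found, and 0 of them overlapped a peak of either list. A stricter peak threshold and leaving out a Runx3 library were not run, because the lists hold neither scores nor values per library. No paired analysis was possible because the peaks were called on joined libraries and no result comes from a test. A peak that is absent from these lists may lie under the threshold used to call them.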
